A study of Mus musculus with 16 samples.

Results

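The genes described here are 40 DNA replication genes, chosen by name to cover the steps that copy the genome, and matched by symbol to the array, on which 25863 genes in all were tested in whole mouse uterus. Of these, 11 act in origin licensing, 6 in helicase activation, 6 are polymerase or primase subunits, 4 form the sliding clamp and its loader, 4 bind single-stranded DNA or join lagging-strand fragments, 4 supply deoxynucleotides, 4 supply or assemble chromatin, and 1, E2f1, is a transcription factor. All 40 were found on the array, and 39 had a probe that stood well clear of background on 4 or more of 16 arrays. The exception was Orc1, the large subunit of the origin recognition complex, which was well above background on 2 arrays, WT E2 replicate 3 (-4.31) and Arg260 E2 replicate 1 (-5.65), and lay between -8.36 and -6.43 on the other 14.

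The series compared 4 groups of 4 mouse uteri in a design of genotype by treatment. Mice were wild type (WT) or carried the genotype named Arg260, which the series title ties to estrogen receptor alpha; how the allele was made is not given in the sources used here. Every mouse had been ovariectomised at 4 weeks of age and kept for 2 to 3 weeks on normal chow, so control animals also lacked ovarian hormones. They then received castor oil under the skin with 17beta-estradiol at 0 (PLB) or 8 ug/kg (E2), and uteri were taken 6 h later. Whole uterus was used, so fewer cells of a type and less RNA per cell cannot be told apart in any value below. The labels give each sample its own number but do not say that these are separate animals, so p-values measure only the spread between these samples.

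Origins are licensed in G1 phase, when the origin recognition complex, Cdc6 and Cdt1 load the MCM ring onto DNA. Geminin (Gmnn) blocks Cdt1 once S phase has begun. Cdc45 and the GINS complex turn the ring into an active helicase, primase and the polymerases copy the strands on the Pcna clamp, and Fen1 and Lig1 finish the lagging strand. Many of these genes are transcribed by E2F factors when a cell commits to S phase. In the uterus of an ovariectomised mouse few cells cycle, and estrogen brings the epithelium into the cell cycle over the day after an injection.

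Values are on the log2 scale, with the 75th percentile of the array's own spots set to 0, so a value says how a probe lay against its own array, and no probe's level is set against another's. Between 36505 and 41890 spots per array were well above background and 0 were saturated. A gene was called higher or lower at an adjusted p under 0.05 (limma over all 25863 genes, Benjamini-Hochberg). The hormone response itself was present on all 8 E2 arrays: Pgr, the progesterone receptor gene and an estrogen target, lay between 4.25 and 4.73 there and between 1.66 and 2.83 on the 8 PLB arrays. Markers of epithelium (8 of 8 genes), stroma (8 of 8) and smooth muscle (7 of 7) were measured. Several summed marker levels, in linear units of the array's 75th percentile, moved with E2. Stroma markers summed to 355 to 477 with PLB and 221 to 322 with E2 in WT, and to 410 to 518 and 234 to 284 in Arg260. Endothelium markers (6 of 6) summed to 23.4 to 30.9 and 14.3 to 16.7 in WT, and to 22.0 to 27.1 and 15.2 to 18.2 in Arg260. Macrophage markers (6 of 6) and ovary and steroidogenic markers (4 of 6) were also lower with E2 without overlap in both genotypes. These sums weigh bright genes most, and genes within a set moved apart. In WT, Cldn5 fell from between 3.87 and 4.43 to between 1.77 and 2.26. Kdr rose from between 1.38 and 1.76 to between 2.35 and 2.96. Tek and Emcn fell, and Pecam1 and Cdh5 overlapped. Cd68 and Mrc1 rose in WT while the other macrophage markers fell. Of the ovary and steroidogenic markers, Inha fell, Amh rose and the others overlapped in WT. In the stroma set, Col1a1, Col3a1 and Hoxa11 overlapped in WT and the others fell. Among smooth muscle markers in WT, Cnn1, Des and Actg2 rose and Acta2, Tagln and Myh11 overlapped. Smtn fell, from between 5.27 and 5.58 to between 4.40 and 4.80. Smooth muscle and adipocyte markers separated the WT groups only, smooth muscle at 433 to 579.9 with PLB and 580.1 to 810 with E2, adipocyte (8 of 8) at 46.5 to 141 and 2.73 to 22.2. The Arg260 ranges overlapped for both, at 26.9 to 81.9 and 5.53 to 48.2 for adipocyte markers, and those of epithelium overlapped in both genotypes. The part of tissue composition in the E2 changes below was not tested.

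One array stood apart. WT E2 replicate 3 had a mean over the 39 measured replication genes of 0.95, against 0.13 to 0.17 on the other 3 WT E2 arrays and 0.13 to 0.40 on all 15 others. WT changes are therefore also given without it.

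**Figure D1:**
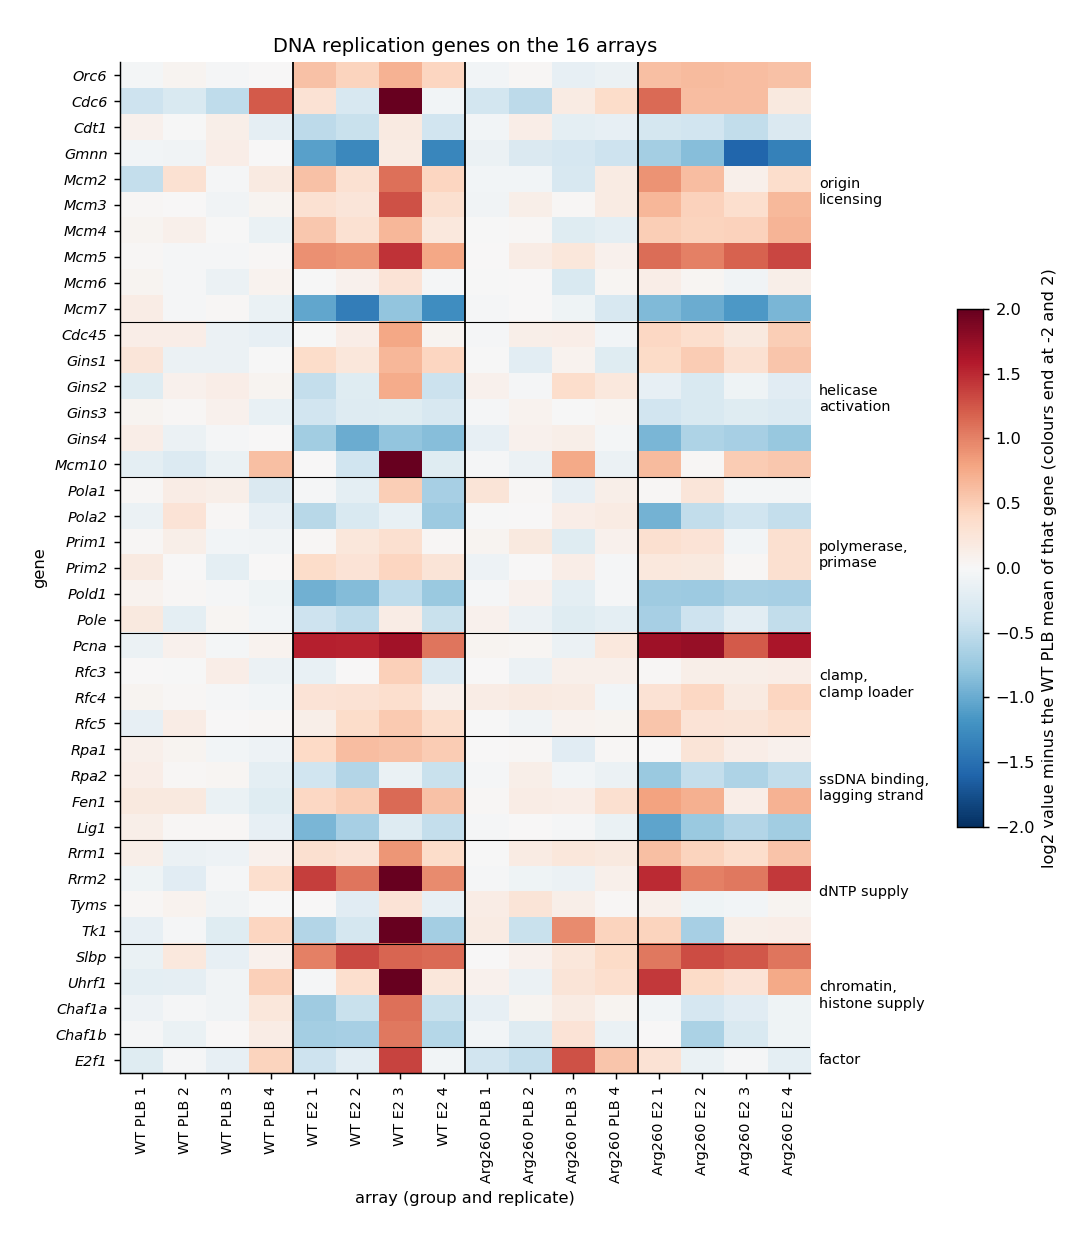
Heat map of the 39 measured replication genes (vertical axis, grouped by role) on the 16 arrays (horizontal axis); colour is the log2 value minus the mean of that gene over the 4 WT PLB arrays. Pcna, Slbp, Mcm5 and Rrm2 are red on all 8 E2 arrays and Mcm7 and Gins4 blue, while WT E2 replicate 3 is red for most genes.

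E2 split the replication genes into some that rose and others that fell. In WT, 15 of 39 rose and 8 fell; 13 and 8 did so in Arg260. Most tested genes differed with E2 at this time: 63.6% of all tested genes were called in WT (31.9% higher and 31.7% lower) and 64.3% in Arg260 (33.6% higher and 30.7% lower), and 23 and 21 members were called (59.0% and 53.8%), shares below that background that turn to above it without replicate 3 of the WT E2 group. The median log2 change of the members was 0.23 in WT and 0.16 in Arg260, against -0.02 and 0.02 over all genes. The same 13 genes rose in both genotypes (Orc6, Mcm2, Mcm3, Mcm4, Mcm5, Gins1, Pcna, Rfc4, Rfc5, Fen1, Rrm1, Rrm2 and Slbp) and the same 8 fell (Gmnn, Mcm7, Gins3, Gins4, Pola2, Pold1, Rpa2 and Lig1). Prim2 and Rpa1 were called, as higher, in WT only, and 16 members were called in neither genotype. Agreement of this kind was common on the array: of all 25863 genes, 7701 rose in both genotypes and 7175 fell in both. A further 7673 were called in neither.

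The counts in WT depended on replicate 3. Without it 14 members rose and 13 fell in WT (69.2% called), with a median of -0.03, against 61.9% of all genes called (31.3% higher and 30.7% lower). Cdt1, Gins2, Pole, Chaf1a and Chaf1b were then called lower, and the rise of Mcm2 was no longer called (adjusted p = 0.0774). The Arg260 counts also moved to 15 higher and 11 lower (66.7% called), since WT and Arg260 arrays share one estimate of the spread per gene and it was smaller without that array for the 5 genes called anew (Cdc45 and Uhrf1 higher, Cdt1, Gins2 and Pole lower). The background there was 64.7% (33.7% higher and 31% lower).

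**Figure D2:**
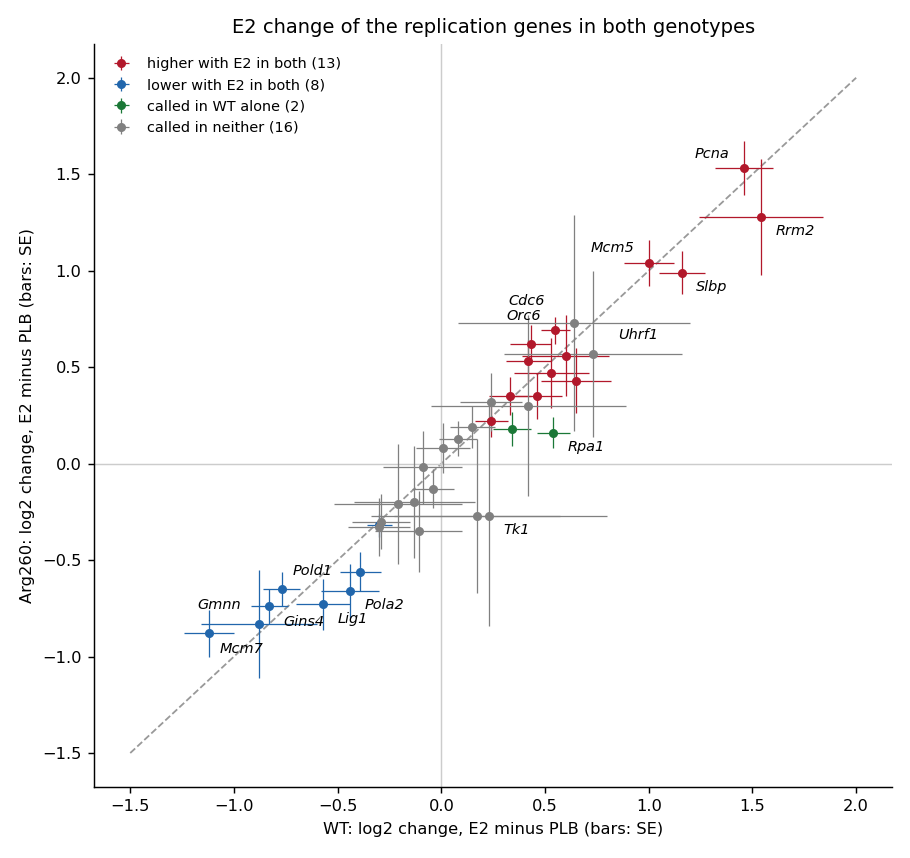
Log2 change with E2 in WT (horizontal axis) against Arg260 (vertical axis) for the 39 measured replication genes, each with its standard error in both directions; the dashed line marks equal change and colours give the calls at an adjusted p under 0.05. The 13 genes that rose in both genotypes and the 8 that fell in both lie along the line, with Rpa1 below it.

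Among the origin licensing genes the rise was clearest for Mcm5 and Orc6. Mcm5, a subunit of the MCM ring (probe at chr8:77651350-77651410, mm9), lay at 0.64, 0.60, 0.59 and 0.65 on the WT PLB arrays and at 1.54, 1.50, 2.06 and 1.39 on the WT E2 arrays. In Arg260 its values were 0.62, 0.77, 0.85 and 0.70 with PLB and 1.73, 1.62, 1.80 and 1.95 with E2. Each E2 array was above every PLB array of its genotype. The log2 change was 1.0 (SE 0.12, adjusted p = 4.1e-06 by limma) in WT and 1.04 (SE 0.12, adjusted p = 2.84e-06) in Arg260, or 2.00 and 2.05-fold, and 0.86 in WT without replicate 3. Orc6, the smallest subunit of the origin recognition complex (chr8:87831769-87831828, mm9), was at 2.68, 2.77, 2.69 and 2.73 with PLB and at 3.31, 3.17, 3.42 and 3.15 with E2 in WT. Its Arg260 values were 2.66, 2.74, 2.55 and 2.60 with PLB and 3.32, 3.36, 3.34 and 3.30 with E2. The groups did not overlap in either genotype, and the change was 0.55 (SE 0.07) in WT and 0.69 (SE 0.07) in Arg260, with limma adjusted p = 5.47e-06 and 4.62e-07, and 0.50 in WT without replicate 3.

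The subunits of the MCM ring, which form one hexamer in the cell, did not change together. Mcm7 fell, from 3.61, 3.43, 3.48 and 3.32 on the WT PLB arrays to 2.42, 2.07, 2.67 and 2.21 on the WT E2 arrays. The Arg260 arrays gave 3.43, 3.47, 3.38 and 3.14 with PLB and 2.57, 2.47, 2.31 and 2.54 with E2. No E2 array reached a PLB array of its genotype, and the log2 changes were -1.12 (SE 0.12, limma adjusted p = 1.3e-06) in WT and -0.88 (SE 0.12, adjusted p = 1.43e-05) in Arg260, a level 2.17 and 1.84-fold lower, and -1.23 in WT without replicate 3. Its probe lies at chr5:138605925-138605984 (mm9) and is the only probe for the gene that was on the array. Mcm2 rose, with values of -1.08, -0.30, -0.63 and -0.43 with PLB and -0.03, -0.31, 0.49 and -0.18 with E2 in WT. In Arg260 Mcm2 was at -0.66, -0.67, -0.93 and -0.45 with PLB and at 0.29, 0.01, -0.51 and -0.26 with E2. Its groups overlapped in both genotypes, and the changes of 0.60 and 0.56 (SE 0.21 each) had limma adjusted p = 0.0218 and 0.031. Its WT change without replicate 3 was 0.44 and was not called.

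Mcm3 and Mcm4 rose by 0.53 and 0.43 in WT and by 0.47 and 0.62 in Arg260, with no overlap between groups. The WT rises without replicate 3 were 0.28 (limma adjusted p = 0.0133) for Mcm3 and 0.35 for Mcm4. Their direction held under the other ways of scaling the arrays, but their calls did not: with quantile normalisation Mcm3 changed by 0.33 in WT and 0.22 in Arg260, and Mcm4 by 0.08 and 0.22. Mcm6 was not called, with changes of 0.08 (SE 0.09; 0.01 without replicate 3) and 0.13 (SE 0.09), and its direction depended on the scaling. Under quantile normalisation it was called lower in both genotypes, at -0.35 and -0.34. Mcm5 (0.89 to 1.15 in WT) and Mcm2 (0.57 to 0.75) were called higher and Mcm7 (-1.44 to -0.97) lower under all 5 scalings tried, in both genotypes.

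**Figure D3:**
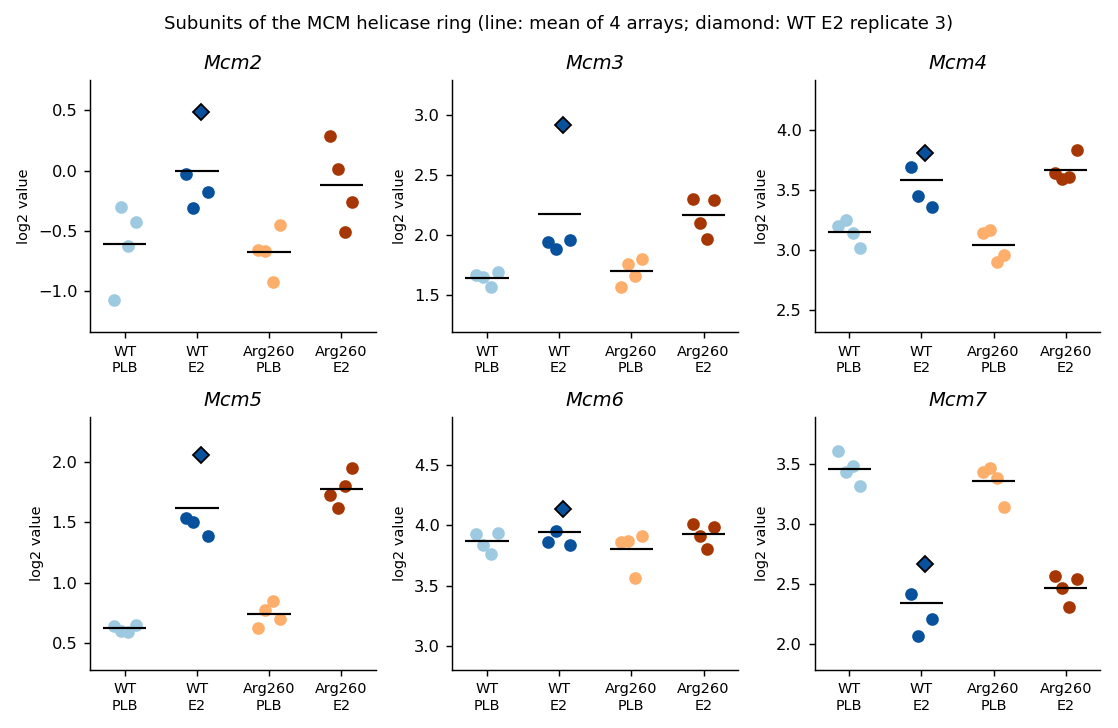
Log2 value (vertical axis, a span of the same size in every panel) of the 6 MCM ring genes in the 4 groups; points are single arrays, the line is the mean of 4 and the diamond is WT E2 replicate 3. Mcm5 sits higher and Mcm7 lower on every E2 array than on the PLB arrays of its genotype, and the Mcm6 groups overlap.

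The promoters of 3 ring genes that rose, fell and were not called are shown because each has a start with E2F words before it, with Cdc6 beside them as an E2F-word gene that was called in neither genotype. Each line gives the 250 bases before the RefSeq start on the gene's strand (GRCm38.p6). Capitals mark the words TTTCCCGC, TTTGGCGC, TTTCGCGC and TTTGCCGC and the word CCAAT, on either strand, and adjoining or overlapping words run together.

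Mcm5, chr8:75109259-75109508, plus strand: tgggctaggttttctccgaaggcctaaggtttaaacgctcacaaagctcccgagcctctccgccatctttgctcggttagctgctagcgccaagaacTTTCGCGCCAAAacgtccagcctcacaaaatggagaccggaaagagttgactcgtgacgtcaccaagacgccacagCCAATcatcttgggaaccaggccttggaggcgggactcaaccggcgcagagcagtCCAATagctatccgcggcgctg
Mcm6, chr1:128359706-128359955, minus strand: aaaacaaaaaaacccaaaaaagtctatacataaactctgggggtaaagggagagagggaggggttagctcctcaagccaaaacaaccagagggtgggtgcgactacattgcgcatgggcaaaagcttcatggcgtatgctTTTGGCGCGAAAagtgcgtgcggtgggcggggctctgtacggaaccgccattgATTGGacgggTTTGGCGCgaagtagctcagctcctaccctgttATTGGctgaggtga
Mcm7, chr5:138171884-138172133, minus strand, the first of its 2 listed starts: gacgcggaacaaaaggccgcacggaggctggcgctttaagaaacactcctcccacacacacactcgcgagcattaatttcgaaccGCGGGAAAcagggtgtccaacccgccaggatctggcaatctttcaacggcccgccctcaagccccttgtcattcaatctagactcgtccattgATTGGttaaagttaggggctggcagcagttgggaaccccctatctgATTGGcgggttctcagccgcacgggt
Cdc6, chr11:98907901-98908150, plus strand: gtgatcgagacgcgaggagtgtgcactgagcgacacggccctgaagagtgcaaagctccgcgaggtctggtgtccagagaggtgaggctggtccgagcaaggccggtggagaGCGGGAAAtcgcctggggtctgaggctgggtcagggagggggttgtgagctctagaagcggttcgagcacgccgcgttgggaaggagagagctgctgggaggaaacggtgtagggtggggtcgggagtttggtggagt

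Promoter windows were listed for 33 of the 40 members, 38 windows in all. An E2F word was in 9 of the 38 (23.7%), against 1.86% of the 32851 windows of all genes, and CCAAT was in 60.5% against 33.8%. The genes with an E2F word were Cdc6, Gins3, Mcm5, Mcm6, Mcm7, Orc1, Pola1, Rfc3 and Uhrf1. They included 1 of the 11 genes with a window that rose in both genotypes, 2 of the 6 that fell in both and 5 of the 14 that were called in neither. For Mcm7 the word was before the first start only; the window before the second (chr5:138171267-138171516) held 0. A word is a match of letters and not a measured binding site.

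The inhibitor of licensing, geminin, fell. Gmnn lay at -2.86, -2.88, -2.68 and -2.80 with PLB and at -3.90, -4.10, -2.65 and -4.11 with E2 in WT, where replicate 3 was the one array at the PLB level. In Arg260 it was at -2.92, -3.10, -3.14 and -3.23 with PLB and at -3.49, -3.66, -4.40 and -4.16 with E2, without overlap. The change was -0.88 (SE 0.28, limma adjusted p = 0.0122) in WT and -0.83 (SE 0.28, adjusted p = 0.0173) in Arg260, and -1.23 (SE 0.18) in WT without replicate 3. The Arg260 call was lost with normexp background correction (-0.40, limma adjusted p = 0.0507) and in the series table (-0.51, adjusted p = 0.0875). The loading factors that geminin acts on or beside were not called: Cdt1 changed by -0.29 and -0.30, and Cdc6 by 0.64 and 0.73 with a standard error of 0.56. Without WT E2 replicate 3, Cdt1 was called lower in both genotypes (-0.45 and -0.30), as it was with all arrays under quantile normalisation (-0.47 and -0.50), and Cdc6 was at -0.03 and 0.73 and called in neither.

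The helicase activation genes were also divided. Of the GINS complex, Gins1 rose (0.42 and 0.53), Gins3 (-0.30 and -0.32) and Gins4 fell, and Gins2 was not called (-0.11 and -0.35). Leaving out replicate 3 gave WT changes of 0.34 for Gins1, -0.32 for Gins3 and -0.39 for Gins2, the last then called. The WT call of Gins3 was lost under median centring, at -0.15. Gins4 (chr8:24337452-24337511, mm9) was at 1.0, 0.76, 0.85 and 0.88 on the WT PLB arrays and at 0.18, -0.12, 0.08 and 0.02 on the WT E2 arrays. Its Arg260 values were 0.71, 0.95, 0.99 and 0.83 with PLB and -0.05, 0.25, 0.21 and 0.11 with E2. All 8 E2 arrays lay below all 8 PLB arrays, at -0.83 (SE 0.09, limma adjusted p = 1.5e-06) in WT and -0.74 (SE 0.09, adjusted p = 4.86e-06) in Arg260. WT E2 replicate 3 was within the range of its group for Gins4, and the WT change without it was -0.85. Cdc45, the GINS partner in the helicase, changed by 0.24 and 0.32 (SE 0.15 each) and Mcm10, which helps start the fork, by 0.42 and 0.30 (SE 0.47 each), and none of these was called. The WT values without replicate 3 were 0.06 and -0.22, and Cdc45 was called higher in both genotypes under quantile normalisation (0.39 and 0.47).

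Of the 4 polymerase subunits among the 40, Pold1 and Pola2 fell and Pola1 and Pole were not called. Pold1, the catalytic subunit of polymerase delta (chr7:51788221-51788589, mm9), lay at 2.83, 2.79, 2.73 and 2.68 with PLB and at 1.80, 1.89, 2.25 and 2.01 with E2 in WT. In Arg260 the values were 2.74, 2.84, 2.56 and 2.73 with PLB and 2.05, 2.03, 2.11 and 2.09 with E2. The groups did not overlap, with changes of -0.77 (SE 0.09, limma adjusted p = 2.99e-06) and -0.65 (SE 0.09, adjusted p = 1.63e-05). Pola2, the accessory subunit of polymerase alpha, was at -3.31, -2.93, -3.17 and -3.37 with PLB and at -3.75, -3.51, -3.35 and -3.92 with E2 in WT. Its Arg260 values were -3.21, -3.20, -3.06 and -3.03 with PLB and -4.15, -3.70, -3.60 and -3.68 with E2. The WT groups overlapped and the Arg260 groups did not, at -0.44 (SE 0.14, limma adjusted p = 0.0157) and -0.66 (SE 0.14, adjusted p = 0.000967). The WT call for Pola2 was lost under the other 4 scalings, down to -0.10. Pola1, the catalytic subunit of the same enzyme, stood at -0.09 and -0.02, and Pole, that of polymerase epsilon, at -0.30 and -0.33. In WT without replicate 3 the changes were -0.86 for Pold1, -0.53 for Pola2, -0.29 for Pola1 and -0.46 for Pole, which was then called.

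The primase genes gave small values. Prim1 changed by 0.15 and 0.19 (SE 0.11 each) and was not called, and Prim2 rose in WT (0.34, limma adjusted p = 0.0035) and was at 0.18 in Arg260 (adjusted p = 0.0807). Replicate 3 left out, their WT changes were 0.09 and 0.31. The direction of Prim1 turned under quantile normalisation, to -0.12 and -0.13, without a call. A second Prim2 probe on the array gave -0.07 and -0.12, so that rise rests on 1 of 2 probes. For Pole the dimmer probes also disagreed, at 0.81 and 1.16 for one and at -0.44 and -1.18 for the other.

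Pcna, the sliding clamp that holds the polymerases on DNA, rose on every E2 array, by more than the other 38 when both genotypes were averaged under this scaling and median centring. Under quantile normalisation Rrm2 (1.59 in WT and 1.34 in Arg260) rose by more than Pcna (1.07 and 1.06), as it did with normexp and in the series table. Pcna lay at 2.96, 3.16, 3.03 and 3.14 with PLB and at 4.62, 4.61, 4.75 and 4.14 with E2 in WT (means 3.07 ± 0.09 and 4.53 ± 0.27, SD, n = 4). In Arg260 it was at 3.13, 3.11, 2.95 and 3.28 with PLB and at 4.77, 4.81, 4.30 and 4.71 with E2 (3.12 ± 0.14 and 4.65 ± 0.24, SD, n = 4). All 8 E2 arrays were above all 8 PLB arrays. The change was 1.46 (SE 0.14, limma adjusted p = 2.87e-07) in WT and 1.53 (SE 0.14, adjusted p = 1.69e-07) in Arg260, or 2.74 and 2.88-fold, and 1.38 in WT without replicate 3. The clamp loader genes moved far less. Rfc4 (0.24 and 0.22) and Rfc5 (0.33 and 0.35) were called higher in both genotypes and Rfc3 (0.01 and 0.08) in neither, and the calls of Rfc4 and Rfc5 were lost under quantile normalisation, at 0.09 and 0.01 for Rfc4 and 0.13 and 0.10 for Rfc5. In WT without replicate 3, Rfc4 was at 0.22, Rfc5 at 0.27 and Rfc3 at -0.14.

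The enzymes of the lagging strand went in opposite directions. Lig1, the ligase that seals finished fragments (chr7:13896609-13896667, mm9), was at 2.70, 2.61, 2.62 and 2.42 with PLB and at 1.68, 1.93, 2.33 and 2.11 with E2 in WT. The Arg260 arrays gave 2.57, 2.59, 2.57 and 2.46 with PLB and 1.54, 1.84, 2.01 and 1.89 with E2. E2 arrays lay below PLB arrays throughout, by -0.57 (SE 0.13, limma adjusted p = 0.00122) and -0.73 (SE 0.13, adjusted p = 0.000155). Fen1, the flap nuclease that trims fragments before ligation, rose by 0.65 (SE 0.17) and 0.43 (SE 0.17), with limma adjusted p = 0.00456 and 0.0453. Without replicate 3 the WT changes were -0.68 for Lig1 and 0.49 for Fen1. The Arg260 rise of Fen1 was lost under quantile normalisation, at 0.22. Of the single-strand binding complex, Rpa2 fell (-0.39 and -0.56) and the large subunit Rpa1 rose in WT (0.54, adjusted p = 4.84e-05) and stood at 0.16 in Arg260 (adjusted p = 0.11). Their WT changes without replicate 3 were -0.48 and 0.52. Under quantile normalisation the Rpa1 rise in WT was 0.14 and no longer called (adjusted p = 0.12), and the Arg260 change turned to -0.25 and was called lower. The WT rise was 0.17 with normexp and in the series table. The WT fall of Rpa2 lost its call under median centring, at -0.25.

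Of the genes for ribonucleotide reductase, which makes deoxynucleotides, Rrm2 and Rrm1 rose, while Rrm2b did not. Rrm2b, a further subunit gene from the other replication genes, was named after its values were seen. It fell in WT (-0.68, SE 0.14, limma adjusted p = 0.000497) and was not called in Arg260 (-0.16, adjusted p = 0.315). On WT E2 replicate 3 Rrm2b was at -3.06, against -3.19 to -3.10 on the other WT E2 arrays. Rrm2, the S phase subunit (chr12:25398824-25398883, mm9), was at -1.15, -1.28, -1.09 and -0.73 with PLB and at 0.33, 0.01, 1.70 and -0.12 with E2 in WT. In Arg260 it was at -1.08, -1.15, -1.18 and -0.96 with PLB and at 0.43, -0.06, 0.00 and 0.35 with E2. The groups did not overlap, and the change was 1.54 (SE 0.30, limma adjusted p = 0.000391) in WT and 1.28 (SE 0.30, adjusted p = 0.00179) in Arg260, or 1.14 (SE 0.16) in WT without replicate 3. Rrm1, the large subunit, rose by 0.46 and 0.35 (SE 0.12 each), and by 0.32 in WT without replicate 3. The Arg260 rise of Rrm1 was lost under quantile normalisation, at 0.18. The thymidine enzymes were not called: Tyms, thymidylate synthase, stood at -0.04 and -0.13 (SE 0.10 each) and Tk1, thymidine kinase, at 0.23 and -0.27 (SE 0.57 each). Leaving out replicate 3 put WT at -0.14 for Tyms and -0.54 (SE 0.30) for Tk1, still without a call. Dimmer Tk1 probes disagreed in Arg260. One gave 0.48 in WT and -0.42 in Arg260 (SE 0.43 each). Another, well above background on 5 arrays only, gave 0.51 and 1.42 (SE 0.35 each).

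Slbp, the protein that binds the stem loop of replication-dependent histone mRNA, also rose on every E2 array. Its values were -0.38, -0.03, -0.41 and -0.16 with PLB and 0.77, 1.08, 0.93 and 0.89 with E2 in WT, and -0.24, -0.15, -0.02 and 0.14 with PLB and 0.81, 1.06, 1.0 and 0.83 with E2 in Arg260. All 8 E2 arrays were above all 8 PLB arrays. The change was 1.16 (SE 0.11, limma adjusted p = 2.94e-07) in WT and 0.99 (SE 0.11, adjusted p = 1.46e-06) in Arg260, and a second probe gave 0.99 and 0.77. The WT change was also 1.16 without replicate 3. The chromatin genes Uhrf1, which guides methylation of newly copied DNA, and Chaf1a and Chaf1b, which assemble nucleosomes behind the fork, were not called, at 0.73, -0.13 and -0.21 in WT and 0.57, -0.20 and -0.21 in Arg260. E2f1, the transcription factor, was at 0.17 and -0.27 (SE 0.40 each). In WT without replicate 3, Uhrf1 was at 0.17 and E2f1 at -0.23, not called, and Chaf1a (-0.54) and Chaf1b (-0.64) were called lower.

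Across scalings, 7 members were called higher in both genotypes every time (Orc6, Mcm2, Mcm5, Gins1, Pcna, Rrm2 and Slbp) and 4 lower (Mcm7, Gins4, Pold1 and Lig1). Orc6, Mcm5, Mcm7, Gins4, Pold1, Pcna and Slbp kept their calls in both genotypes under all 29 alternatives, which include each array left out in turn and each slide alone. Neither count was made over all genes, so they do not say whether the members' calls are more stable than those of other genes. Other calls turned on single arrays. Mcm2 was no longer called in WT without PLB replicate 1 (0.45) or E2 replicate 3 (0.44), nor in Arg260 without PLB replicate 1, 2 or 3 or E2 replicate 1 or 2 (0.43 to 0.57). In Arg260 the rise of Mcm3 was lost without PLB replicate 1 or 3 or E2 replicate 1 or 4 (0.42 to 0.45), that of Rrm1 without PLB replicate 1 or E2 replicate 1 or 4 (0.29 to 0.32) and that of Rfc4 without PLB replicate 4 or E2 replicate 2 or 4 (0.16 to 0.19). The Arg260 rise of Fen1 was lost in 9 of the 16 fits with 1 array left out (0.35 to 0.43). The falls of Gmnn in Arg260 without E2 replicate 3 (-0.67) and of Pola2 in WT without PLB replicate 2 (-0.35) or E2 replicate 4 (-0.34) were also lost.

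No difference between genotypes was called. For the interaction, Arg260 without hormone and Arg260 with hormone, each against WT, limma called 0 of 39 members and 0 of 25863 genes (0%). Unadjusted p-values were under 0.05 for 1, 0 and 1 of 39 members in these 3 comparisons, and the gene was Rpa1 both times. Over all genes they were so for 961, 638 and 1900 (3.72%, 2.47% and 7.35%). Rpa1 was at 3.74, 3.96, 3.93 and 3.85 on the WT E2 arrays and at 3.34, 3.59, 3.48 and 3.42 on the Arg260 E2 arrays, without overlap, and its PLB values were 3.24 to 3.44 and 3.11 to 3.37. Its response was smaller in Arg260 by a difference of -0.38 (SE 0.12, unadjusted p = 0.00627, limma adjusted p = 0.9998), and a second probe gave changes of 0.67 in WT and 0.32 in Arg260. Over the other members called with E2 the interaction was between -0.27 (Rrm2, 95% interval -1.18 to 0.65) and 0.24 (Mcm7, -0.13 to 0.60). The intervals for Tk1 (-2.25 to 1.23), Cdc6 (-1.59 to 1.78), Mcm10 (-1.54 to 1.31) and Uhrf1 (-1.47 to 1.14) were so wide that a difference of more than 1 on the log2 scale in either direction lay within them.

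These comparisons also moved without WT E2 replicate 3, though again 0 genes were called. The members' median interaction went from -0.03 (17 of 39 positive) to 0.14 (31 of 39 positive), against 0.03 over all genes both times. Rrm2 turned from -0.27 to 0.14 (SE 0.21), Tk1 from -0.51 to 0.26 (SE 0.41), Mcm10 from -0.11 to 0.52 (SE 0.34) and Uhrf1 from -0.16 to 0.40 (SE 0.33), while Mcm7 was at 0.35 (SE 0.15) and Rpa1 at -0.36 (SE 0.12). Unadjusted p-values under 0.05 were then found for 4 members in the interaction (Orc6, Mcm7, Rpa1 and Chaf1a), against 4.21% of all genes. For Arg260 against WT with E2 they were found for 11 members (28.2%), against 9.87% of all genes, and 34 of 39 members were higher in Arg260, with a median of 0.12. The 11 were Mcm3, Mcm5, Mcm7, Cdc45, Mcm10, Pola1, Rfc3, Uhrf1, Chaf1a and Chaf1b, all higher in Arg260, and Rpa1, which was lower. The smallest limma adjusted p among the members was 0.31 there and 0.984 for the interaction. WT E2 replicate 3 was set apart because its members were high, 36 of 39 above the other 3 WT E2 arrays. Leaving it out lowers the WT E2 mean of those members by construction and moves both comparisons upward. These counts therefore cannot tell a genotype difference from the choice of that array.

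Within the WT E2 group the widest spread was that of Tk1, Cdc6, Mcm10 and Uhrf1, none of them called with E2 in the fit of all arrays. On WT E2 replicate 3, 36 of 39 members lay above the other 3 WT E2 arrays and 24 were the highest of all 16 arrays, against 25.6% and 4.44% of all genes. Tk1 was at 0.17 there and at -2.96, -2.73 and -3.06 on replicates 1, 2 and 4. Cdc6 was at -2.44 against -4.80, -5.41 and -5.15, and Mcm10 at -1.01 against -3.32, -3.72 and -3.57. These are gaps of 3.13, 2.71 and 2.56 from the median of the other 3, larger than any E2 change among the members. Uhrf1 (1.21 against -1.26, -0.90 and -1.01), Chaf1b (1.12 against -0.61, -0.60 and -0.50) and Rrm2 (1.70 against 0.33, 0.01 and -0.12) followed. The other groups lay within narrower ranges for all of these genes. Tk1 was at -2.55, -2.40, -2.63 and -1.95 on the WT PLB arrays, at -2.21, -2.82, -1.44 and -1.94 on the Arg260 PLB arrays and at -1.93, -3.04, -2.27 and -2.25 on the Arg260 E2 arrays. Cdc6 was at -5.50, -5.39, -5.60 and -3.86, at -5.46, -5.61, -4.93 and -4.72 and at -3.95, -4.47, -4.47 and -4.90 in the same order of groups. Mcm10 was at -3.52, -3.59, -3.45 and -2.72, at -3.34, -3.44, -2.56 and -3.44 and at -2.69, -3.29, -2.82 and -2.78. For these genes WT E2 replicate 3 was the highest of the 16 arrays. Uhrf1 was at -1.43, -1.41, -1.30 and -0.76, at -1.15, -1.35, -0.98 and -0.89 and at 0.19, -0.84, -0.96 and -0.48. Chaf1b was at 0.05, -0.07, 0.07 and 0.22, at 0.01, -0.19, 0.35 and -0.07 and at 0.07, -0.56, -0.24 and -0.01. By contrast Slbp, Rfc4, Gins4, Rpa1, Gins3 and Pcna lay within 0.14 of that median.

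**Figure D4:**
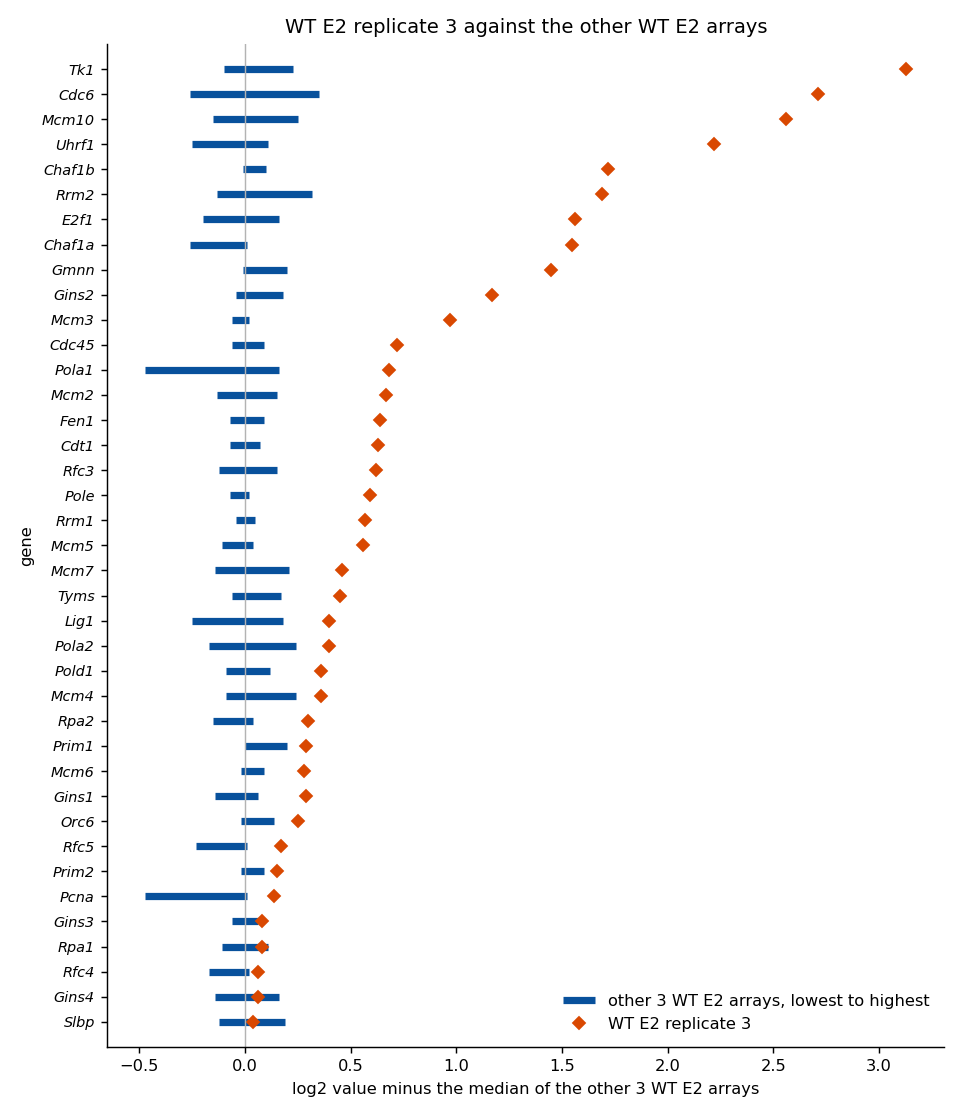
Log2 value on WT E2 replicate 3 (diamonds) minus the median of the other 3 WT E2 arrays (horizontal axis) for each of the 39 measured replication genes (vertical axis, in order); bars span the lowest to the highest of the other 3. The diamond lies right of the bar for 36 genes, from 3.13 for Tk1 down to 0.04 for Slbp, which is within its bar.

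Genes of mitosis moved with the members on that array. The mean of 27 measured G2/M and mitosis genes was -0.48 there and from -2.64 to -2.45 in replicates 1, 2 and 4, and Mki67, the gene of the Ki-67 proliferation marker, was at 1.93 against -1.25, -1.09 and -1.06. Cyclin A2 (Ccna2) was at 0.57 against -2.67 to -2.51. Hormone targets did not stand apart to that extent: Pgr was at 4.35 against 4.25 to 4.47 and Greb1, an estrogen-induced growth gene, at 5.77 against 5.94 to 6.51. Summed marker levels on this array and the other 3 were 322 against 221 to 275 for stroma (8 of 8 genes measured), 810 against 580 to 728 for smooth muscle (7 of 7) and 149 against 126 to 158 for epithelium (8 of 8). They were 16.3 against 16.6 to 19.2 for macrophages (6 of 6), 3.22 against 3.46 to 3.73 for lymphocytes (8 of 8) and 15.6 against 14.3 to 16.7 for endothelium (6 of 6). Skeletal muscle markers summed to 7.65 against 4.04 to 5.86 (4 of 7) and erythroid markers to 29.4 against 35.5 to 72.5 (4 of 5). Within the stroma set, Col1a1 (5.65 against 2.42 to 3.91) and Col3a1 (5.78 against 3.27 to 4.70) lay farthest above the other 3 arrays. Lum, Vim and Pdgfra were above them by less, and Dcn, Hoxa10 and Hoxa11 were within their range. Of the skeletal muscle markers, Acta1 was above (2.76 against 1.67 to 2.27) and the others measured were not. The part of tissue composition in the replication values of this array was not tested.

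Smaller departures occurred in PLB arrays. WT PLB replicate 4 was at -3.86 for Cdc6 against -5.60 to -5.39 on the other WT PLB arrays and at -2.72 for Mcm10 against -3.59 to -3.45. Arg260 PLB replicate 3 was at -1.36 for E2f1 against -3.11 to -2.08, at -2.56 for Mcm10 against -3.44 to -3.34 and at -1.44 for Tk1 against -2.82 to -1.94. The G2/M mean was -1.98 on the first of these arrays and -1.86 on the second, against -2.49 to -2.33 and -2.51 to -2.20 on the others of their groups. Macrophage markers summed to 65.7 on Arg260 PLB replicate 3 against 21.2 to 26.9 on the other Arg260 PLB arrays (6 of 6 genes measured), and lymphocyte markers to 7.10 against 2.93 to 3.99 (8 of 8). Adgre1 lay farthest above the others on that array (4.64 against 0.16 to 0.37), and Mrc1 lay below them (0.20 against 0.81 to 1.25). Of the lymphocyte markers, Cd79b (2.09 against -1.20 to -0.79) and Cd79a were above the others and the rest were not. The part of tissue composition in the replication values of Arg260 PLB replicate 3 was not tested.

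**Figure D5:**
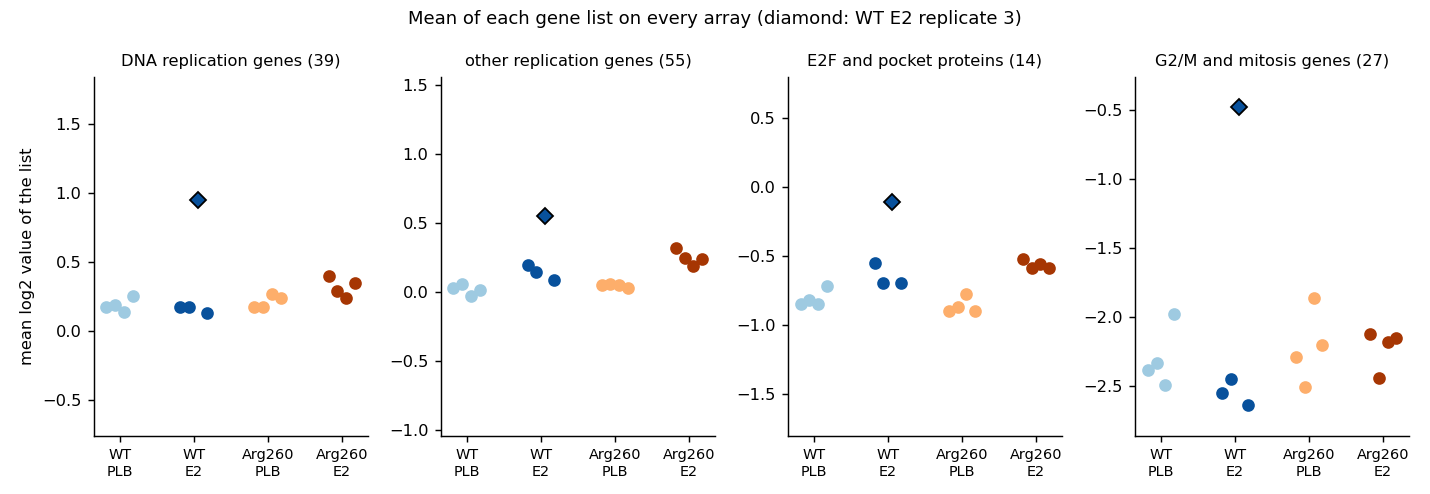
Mean log2 value of 4 gene lists (vertical axis, spans of the same size) on each array in the 4 groups (horizontal axis); the diamond is WT E2 replicate 3. That array is the highest for all 4 lists, at 0.95 for the replication genes and -0.48 for the G2/M genes.

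Further genes of the same pathway also included rises and falls. Among 55 other replication genes (origin, fork, polymerase, clamp loader, deoxynucleotide and histone chaperone genes), 23 rose and 13 fell in WT and 24 and 13 in Arg260, with medians of 0.21 and 0.17. These are 65.5% and 67.3% called, near the 63.6% and 64.3% of all genes. Orc2, another origin recognition subunit, rose by 2.18 in WT and 2.32 in Arg260, more than any of the 40. It was at -2.11, -1.84, -1.91 and -1.86 with PLB and at 0.34, 0.29, 0.22 and 0.14 with E2 in WT, without overlap. Topoisomerase I (Top1: 1.73 and 1.78) and the fork protection gene Tipin (1.63 and 1.68) also rose. Pold4, the small subunit of polymerase delta, fell by 1.60 in WT and by 1.59 in Arg260. The other polymerase subunits of the list were named after their values were seen. Pold2 (0.67 and 0.71), Pole3 (0.61 and 0.59) and Pole4 (1.01 and 1.05) rose in both genotypes. Pole2 (0.41 and 0.45) and Pold3 (0.03 and -0.06) were called in neither. Dscc1, a clamp loader subunit of sister chromatid cohesion, fell in WT (-1.31, adjusted p = 0.0275) and was at -1.02 in Arg260 (adjusted p = 0.0762). The WT call of Dscc1 was lost without any one of WT E2 replicates 1, 2 and 4 and WT PLB replicates 3 and 4 (-1.28 to -0.90), and under median centring (-1.16), normexp (-0.55) and in the series table (-0.78). Without WT E2 replicate 3, Dscc1 was called lower in both genotypes (-1.95, adjusted p = 2.08e-05, and -1.02, adjusted p = 0.00218); without WT E2 replicate 4 it was called in Arg260 (adjusted p = 0.0436) and not in WT. The list's WT counts without replicate 3 were 22 and 18 (72.7% called, against 61.9% of all genes), with a median of 0.06. Orc2 was then at 2.19, Top1 at 1.76, Tipin at 1.58 and Pold4 at -1.66 in WT.

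Of 14 E2F and pocket protein genes, which switch replication genes on and off, 7 rose and 3 fell in each genotype, with medians of 0.49 and 0.47. These are 71.4% called in each, against 63.6% of all genes in WT and 64.3% in Arg260. The dimer partner Tfdp1 (1.83 and 1.89), the repressor E2f6 (1.52 and 1.40) and Mybl2 (1.32 and 1.62), itself known as an E2F target, rose. Tfdp2 (-2.30 and -2.39) and the pocket proteins Rbl2 (-1.41 and -1.61) and Rbl1 (-0.47 and -0.60) fell. Without WT E2 replicate 3, 7 rose and 5 fell in WT (85.7% called, against 61.9% of all genes), with a median of 0.31. These 6 genes then changed by 1.83, 1.57, 1.06, -2.19, -1.37 and -0.62 in WT, in the order named.

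Regulators of the G1 to S step gave 6 rises and 4 falls among 15 measured genes in WT and 5 of each in Arg260. These are 66.7% called in both, near the 63.6% and 64.3% of all genes. Cdkn1a, the p21 inhibitor of cyclin-dependent kinases, rose by 4.02 and 3.94, from between -0.40 and 0.35 on the WT PLB arrays to between 3.69 and 4.19 on the WT E2 arrays. The kinase Cdk4 (1.01 and 1.04) and the phosphatase Cdc25a (0.99 and 1.03) also rose. The inhibitors Cdkn2c (-2.35 and -2.20) and Cdkn1b, the p27 gene (-1.45 and -1.74), fell, as did Cdk6 (-1.88 and -1.60), which was well above background on 3 of the 4 WT E2 arrays. Leaving out WT E2 replicate 3 gave 4 rises and 5 falls in WT (60% called, against 61.9% of all genes). Cdkn1a was then at 4.11, Cdk4 at 0.95, Cdc25a at 0.96, Cdkn2c at -2.62, Cdkn1b at -1.39 and Cdk6 at -2.12.

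The G2/M and mitosis list had 5 rises and 3 falls among 27 measured genes in WT and 5 and 4 in Arg260, with medians of -0.01 and -0.31. The shares called, 29.6% and 33.3%, were below the 63.6% and 64.3% of all genes. With WT E2 replicate 3 left out there were 14 falls in WT and 10 in Arg260 (70.4% and 55.6% called, against 61.9% and 64.7% of all genes), and the WT median was -0.62. The spindle checkpoint gene Mad2l1 rose by 5.06 and 5.65, the spindle factor Tpx2 by 2.34 and 2.39 and survivin (Birc5) by 2.33 and 1.85. Bub1b, another checkpoint gene (-1.96 and -2.09), the centromere histone Cenpa (-1.58 and -1.90) and the kinetochore gene Ndc80 (-0.65 and -0.71) fell. Their WT changes without replicate 3 were 5.11, 2.19, 2.16, -2.19, -2.08 and -0.93 in the order named. The Ndc80 call was lost in WT without E2 replicate 1, 2 or 4 or PLB replicate 3 (-0.64 to -0.47) and in Arg260 without E2 replicate 2 (-0.63). It was also lost in both genotypes under the other 4 scalings (-0.50 to -0.34 in WT and -0.57 to -0.39 in Arg260). Without Arg260 E2 replicate 1 or Arg260 PLB replicate 2 the list had 3 rises in Arg260, and without Arg260 E2 replicate 2 it had 2 falls.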

How the data were processed

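RNA of 16 mouse uteri was hybridised to Agilent one-colour arrays, 1 per sample, on 2 slides that each held 2 arrays of every group. Per the file headers, the authors read spot intensities with Feature Extraction 10.10.1.1, whose processed signal is background-subtracted within its array. The authors' deposited value table, on a log2 scale with 1 distribution shared by all columns, covers 37585 probes and served as an alternative; limma is named in the submitters' processing notes.

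Processed signals were put on a log2 scale and each array was shifted so that the 75th percentile of its 59305 non-control spots was 0; outlier spots were left out. Spots of a probe were averaged. Probes well above background on at least 4 of 16 arrays were kept (38683 of 55681), and the brightest stood for its gene. Names came from RefSeq accessions for 27235 probes, from symbols or synonyms for 3581 and 565, and from the files for 24300. limma 3.58.1 (R 4.3.3) fitted the 4 group means with 1 shared spread, two-sided, with Benjamini-Hochberg adjustment over 25863 genes. Precision is limited by how many arrays there were: half-widths of the 95% interval had a median of 0.30 for an E2 change in WT and 0.42 for an interaction. On simulated WT E2 data, in which 200 of 25863 genes were changed, the fit recovered 73% of log2 changes of 1 and 93% of those of 2. It made 9 false calls. In the data 63.6% of all genes were called in WT, so these shares do not say how many true E2 changes were found.

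The 40 genes, the other lists and the tests were chosen with earlier results of these data known. Values on every array are given for the 12 genes called in both genotypes with the largest mean change and the 6 for which WT E2 replicate 3 lay farthest from its group; Mcm3, Mcm4 and Mcm6 are described beside the ring genes and Rpa1 beside the genotype test. From each other list, the 3 largest called rises and falls in WT are named, except 1 that is not reported here. Probe positions are mm9, per the files; exon annotation for that build was not used here. Alternatives covered scaling, background, filter, probe choice, outlier spots, prior, slide, replicate number and each array left out. Same-numbered arrays deviated together little (correlations -0.11 to 0.26, median 0.03, against a median of -0.02 for other numbers). Low correlations over all genes cannot exclude pairing, and the labels do not name pairs, so the main fit used none.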

Additional observations from a re-analysis of the deposited data

Results flagged for a closer look

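Of 160 sets of 4 arrays (39 genes and their mean in 4 groups), 20 (12.5%) held 1 array separated from the other 3 by a gap larger, as a share of the whole range, than Dixon's 95% critical value. Chance alone marks about 1 in 20 of a large number of independent sets. These sets share the same 16 arrays and 1 is the mean of the others, so the 12.5% is a description and not a test. Of the 20, 10 were WT E2 replicate 3, which was high for the members' mean (0.95) and for Gmnn (-2.65), Mcm3 (2.91), Mcm10 (-1.01), Pole (0.78), Rrm1 (2.03), Tk1 (0.17), Uhrf1 (1.21), Chaf1a (-0.68) and Chaf1b (1.12). WT PLB replicate 4 was high for Cdc6 (-3.86) and Mcm10 (-2.72). Arg260 PLB replicate 3 was high for Mcm10 (-2.56) and low for Mcm6 (3.56) and Rpa1 (3.11). Arg260 PLB replicate 4 was low for Rfc4 (1.38) and Lig1 (2.46), Arg260 E2 replicate 3 low for Prim1 (2.25) and Fen1 (1.42), and Arg260 E2 replicate 1 low for Rfc3 (-1.56). Mcm10, an initiation factor, was the gene most often concerned, in 3 groups.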

How the results depend on the processing

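Over 29 alternatives and the members' 2 E2 changes, 2096 of 2260 values kept direction and call, 108 lost a call, 47 gained one and 9 reversed; a change of sign counted only where a value was called. The cause of these changes was not tested. The reversals were Mcm6 in WT (-0.35, -0.33 and -0.30) and in Arg260 (-0.34, -0.35 and -0.36) and Rpa1 in Arg260 (-0.25, -0.23 and -0.21), under quantile normalisation, normexp with quantile normalisation and the series table in turn. In these 3 settings 8 members were higher in Arg260, against 13. The Arg260 median of the members was 0.01, 0.29 and 0.02 under quantile, median centring and normexp. Median centring moved the median of all genes to 0.12 in WT and 0.15 in Arg260, and left 5 lower calls in WT. Within slide 1, 7 members were higher in WT; within slide 2, with 8 arrays, 9 were higher and 3 lower in WT and 5 and 4 in Arg260. Leaving out 1 array gave 14 to 15 higher and 7 to 13 lower in WT, with medians of -0.03 to 0.32, and 9 to 15 and 8 to 11 in Arg260. No alternative called a member in the interaction or between genotypes.

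For the 55 other replication genes, the WT median was 0.35 under median centring and 0.34 within slide 2, which had 8 lower calls, and 0.06 to 0.27 with 1 array left out; the Arg260 median was 0.07 (quantile), 0.30 (median centring), 0.05 (normexp) and 0.31 (filter on all 16 arrays). For E2F and pocket proteins, the Arg260 median was 0.60 under median centring and 0.36 to 0.55 with 1 array left out, and WT lower calls were 3 to 5. For G1/S genes, whose WT median was -0.01, it was 0.13 (quantile), 0.14 (median centring and normexp), 0.12 (series table), 0.17 (filter on all 16 arrays), -0.17 (slide 1) and 0.43 (slide 2), and -0.18 to 0.20 with 1 array left out; within slide 2, 3 were higher in each genotype. For G2/M genes, lower calls in WT were 11 (slide 1), 1 (slide 2) and 2 to 14 with 1 array left out. In Arg260, higher calls were 3 (slide 2) and 3 to 5 with 1 array left out, and lower calls 2 (quantile, median centring and normexp), 1 (slide 2) and 2 to 10 with 1 array left out. The Arg260 G2/M median was -0.16 (quantile), -0.18 (median centring), -0.05 (normexp), -0.01 (series table), -0.20 (filter on all 16 arrays, and mean of probes), -0.06 (slide 1) and -0.43 (slide 2), and -0.52 to -0.13 with 1 array left out.

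With the replicate number as a block, 15 members were higher and 8 lower in WT and 10 and 8 in Arg260; the calls of Mcm2 (0.56), Mcm3 (0.47) and Fen1 (0.43) in Arg260 were lost. The labels do not say whether the numbers pair the samples. Low signal limits Orc1, which was well above background on 2 arrays.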
